A study of Drosophila melanogaster with 38 samples.

Results

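The nuclear genes of respiratory complex I were compared between fruit flies on a full diet, flies on a restricted diet and flies moved from the full to the restricted diet. Members were all genes whose symbol on the array platform starts with ND-, the prefix of the NADH dehydrogenase subunits in Drosophila melanogaster. The array named 32 such genes by a probe set with a single symbol, of 11982 genes named in this way. Each gene was represented by the probe set with its highest mean over 36 arrays, and 26 of the 32, with a mean log2 score of at least 6, were followed further, among 7826 genes with such a mean. The choice used the level over all cohorts together and no difference between cohorts.

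Total RNA of the head and thorax of at least 75 female Canton-S flies, 40 days old at the time of the switch, was hybridized to each Affymetrix Drosophila 2.0 array. The CF cohort lived on control food, an agar medium with yeast and sugar, and the RF cohort on restricted food, in which both nutrients were diluted. The SF cohort was kept on control food and was switched to restricted food at the age of 40 days. Each cohort was sampled with 1 array at each of 12 times between 2 and 72 hours from the switch, so that the 12 hours of a cohort stand in for replicates. All flies were of the same wild-type strain and carried no transgene, and each array pooled flies that had lived together in vials with males.

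Complex I is the entry point of electrons from NADH into the respiratory chain of mitochondria. Its matrix arm oxidizes NADH and passes the electrons over iron-sulfur clusters to ubiquinone, and its membrane arm pumps protons. A core shared with bacteria carries out the reaction, and accessory subunits surround that core and are needed to build it or keep it stable. The core of the membrane arm is encoded in mitochondrial DNA, and the other subunits are encoded in the nucleus. In Drosophila the flight muscle of the thorax is very rich in mitochondria. The place of a subunit in the complex is given below as it is known from the mammalian structure.

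All but 1 of the 26 members scored high on the array. Apart from ND-B8, their means ran from 10.7 for ND-13B and ND-75 to 13.9 for ND-MLRQ, at or above percentile 91.85 of all probe sets on the array. ND-B8, an accessory subunit of the matrix arm, scored 6.31 and lay just inside the limit. ND-B12, an accessory subunit of the distal membrane arm, scored 5.99 and lay just outside it. The other 5 genes under the limit were all paralogs whose symbol carries an added L, namely ND-20L at 5.79, ND-51L1 at 5.01, ND-51L2 at 4.64, ND-24L at 4.44 and ND-B14.5AL at 3.53. Duplicated genes of this kind are known in Drosophila for expression in the testis, and the 6 testis markers scored between 3.05 and 4.55 in these female flies. Levels of different probe sets are on the scale of each probe set and were not ranked further. ND-ACP was covered by 3 probe sets and ND-B17 by 2, and 6 members were measured by a probe set whose suffix _s_at marks probes that can match more than 1 transcript. ND-23, ND-24, ND-30, ND-49, ND-49L, ND-AGGG, ND-B15 and ND-MWFE were not analysed here, and neither were mitochondrially encoded subunits.

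**Figure D1:**
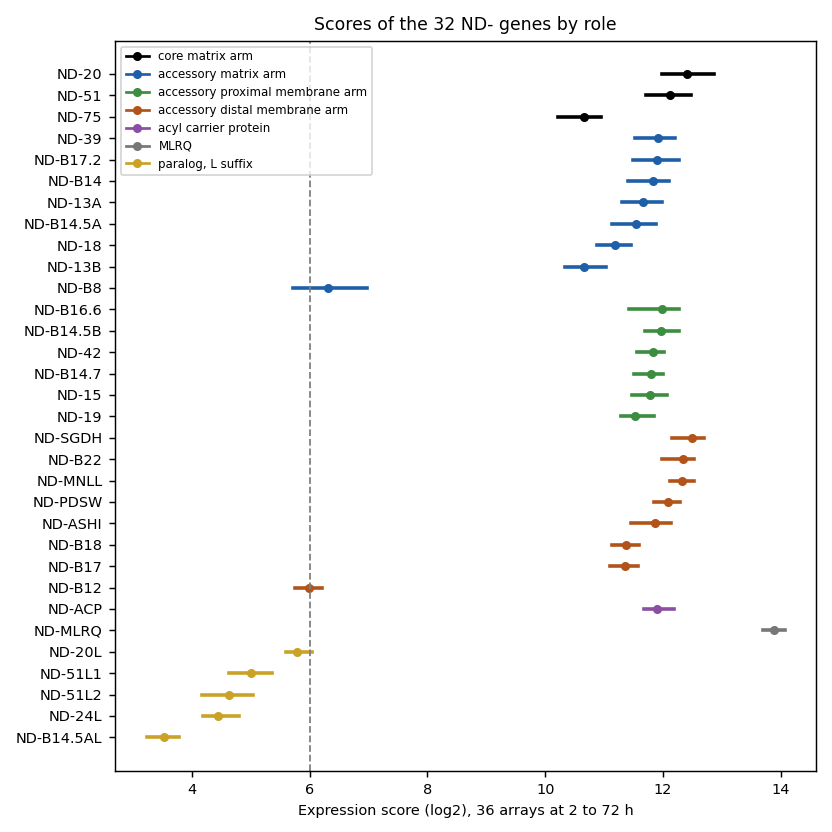
Mean log2 score (point) and range (line) of each of the 32 ND- genes over the 36 arrays at 2 to 72 hours, coloured by the role of the subunit, with a dashed line at the limit of 6. The 5 paralogs with an L suffix and ND-B12 have means below the line, and ND-B8, at 6.31, is the only other gene near it.

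Facts of the arrays bear on all results below. Markers of photoreceptors and of flight muscle were present in the head and thorax samples, with list means of 9.85 to 11.5 and 9.27 to 10.7. Eggshell genes, which follicle cells of the ovary express, were present too, with a list mean between 9.83 and 12.8 on the 36 arrays, although the ovary lies in the abdomen. The SF arrays at 6 and 8 hours stood apart for complex I, with member means of 11.40 and 11.34 against 11.49 to 11.76 on the other SF arrays. The SF array at 8 hours also held the highest eggshell mean (12.8) and the lowest flight muscle (9.27) and photoreceptor (9.85) means of the 36. In tissue samples such as these, fewer cells of a type and less RNA per cell cannot be told apart.

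Of the 26 complex I genes, 8 were called higher in flies kept on the restricted diet than in flies kept on the full diet, by small amounts, and 18 did not pass. The difference between the arrays of the same hour, RF minus CF on the log2 scale, was positive for 26 of 26 members, with a median of 0.13 and a range of 0.04 to 0.24. The median over all 9420 probe sets tested was -0.01. By limma with the p values of the 3 comparisons adjusted together, 8 of the 26 members (30.8%) were called higher in RF, where 4.77% of all probe sets tested were called higher, and 0 of 26 were called lower, where 2.65% of all were. An unadjusted p under 0.05 was reached by 17 members, and by 2163 of all 9420 probe sets. The scores of RF and CF overlapped for every one of the 26 members, so the differences show within pairs of the same hour and not as separate ranges.

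Accessory subunits of the matrix arm held the largest differences. ND-B14.5A, a small accessory subunit of this arm, ran from 11.23 to 11.68 in CF with a median of 11.43, from 11.49 to 11.87 in RF with a median of 11.71, and from 11.14 to 11.74 in SF with a median of 11.50. RF was the higher cohort at 11 of 12 hours, and its lowest array, at 12 hours, still scored above the CF median. The RF minus CF difference of ND-B14.5A was 0.24 (SE 0.044, adjusted p = 0.00611 by limma), which is 18.3% more signal. ND-B14, which in mammals is a LYR-motif protein that holds an acyl carrier protein, ran from 11.55 to 11.97 in CF (median 11.75), from 11.67 to 12.11 in RF (median 11.94) and from 11.40 to 12.00 in SF (median 11.84). The lowest SF array of ND-B14 was that of 8 hours and its highest that of 4 hours. Its RF minus CF difference was 0.19 (SE 0.046, adjusted p = 0.0317), with 9 of 12 hours positive. ND-13A, whose mammalian counterpart binds zinc, ran from 11.31 to 11.71 in CF (median 11.60), from 11.63 to 11.99 in RF (median 11.77) and from 11.40 to 11.82 in SF (median 11.64). Its RF range began above the CF median. ND-13A differed by 0.19 (SE 0.039, adjusted p = 0.0156), with 11 of 12 hours positive.

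The other 5 members of this group were not called. ND-B8 had a difference of 0.18 with the widest error of all members (SE 0.086, adjusted p = 0.340), and ND-13B one of 0.18 (SE 0.059, adjusted p = 0.136). ND-B17.2 and ND-18, whose mammalian counterparts serve late steps in building the matrix arm, differed by 0.15 and 0.14. ND-39, which sits in mammals near the joint of both arms, had the smallest difference of the 26. It ran from 11.80 to 12.17 in CF (median 11.85), from 11.71 to 12.03 in RF (median 12.00) and from 11.53 to 12.20 in SF (median 11.89). The CF range of ND-39 reached above the RF range, and the difference was 0.04 (SE 0.040, adjusted p = 0.651). The median RF minus CF difference of the 8 accessory matrix arm genes was 0.18, with 3 called.

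The 3 core subunits of the matrix arm that were measured were positive but not called. ND-75, which carries iron-sulfur clusters, differed by 0.12 (adjusted p = 0.238). ND-51, which binds NADH and the flavin, differed by 0.08 (adjusted p = 0.484). ND-20, which holds the last iron-sulfur cluster before ubiquinone, differed by 0.10 (adjusted p = 0.509), and its pairs ran from -0.36 at 6 hours to 0.40 at 18 hours. The 95% intervals of ND-51 and ND-20 reached from -0.02 to 0.17 and from -0.04 to 0.23, and both intervals include the median of all members, 0.13.

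Among accessory subunits of the proximal membrane arm, 2 of 6 were called. ND-19, a subunit on the intermembrane side with paired cysteine motifs, ran from 11.35 to 11.63 in CF (median 11.44), from 11.44 to 11.84 in RF (median 11.60) and from 11.28 to 11.76 in SF (median 11.49). RF was higher at 12 of 12 hours, though by as little as 0.003 at 4 hours. The difference of ND-19 was 0.16 (SE 0.033, adjusted p = 0.0138). ND-B14.5B, a subunit at the base of the membrane arm, ran from 11.69 to 12.04 in CF (median 11.95), from 11.93 to 12.26 in RF (median 12.04) and from 11.72 to 12.13 in SF (median 11.93). Its lowest RF array lay just under the CF median. The difference was 0.14 (SE 0.036, adjusted p = 0.0448), with 10 of 12 hours positive. ND-B16.6, the fly counterpart of the mammalian GRIM-19, differed by 0.13 (adjusted p = 0.116), and ND-15 by 0.12 (adjusted p = 0.143).

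The other 2 genes of the proximal group had some of the smallest differences. ND-42, which resembles nucleoside kinases, ran from 11.64 to 11.98 in CF (median 11.79), from 11.67 to 11.98 in RF (median 11.87) and from 11.56 to 12.01 in SF (median 11.85). Its ranges in CF and RF nearly coincided, and the difference was 0.06 (SE 0.039, adjusted p = 0.524). ND-B14.7, a membrane protein next to the core, ran from 11.55 to 11.97 in CF (median 11.78), from 11.67 to 12.00 in RF (median 11.86) and from 11.51 to 11.96 in SF (median 11.80). All 3 cohorts of ND-B14.7 overlapped over most of their ranges. Its difference was 0.06 (SE 0.048, adjusted p = 0.570).

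In the distal membrane arm 3 of 7 accessory subunits were called. ND-SGDH ran from 12.30 to 12.55 in CF (median 12.42), from 12.44 to 12.69 in RF (median 12.61) and from 12.15 to 12.56 in SF (median 12.48). Every RF array of ND-SGDH scored above the CF median. The difference was 0.16 (SE 0.033, adjusted p = 0.0154), positive at 12 of 12 hours. ND-PDSW ran from 11.87 to 12.16 in CF (median 12.06), from 12.00 to 12.28 in RF (median 12.15) and from 11.84 to 12.22 in SF (median 12.02). The upper CF scores of ND-PDSW overlapped with its lower RF scores, and the difference was 0.13 (SE 0.033, adjusted p = 0.0471), with 11 of 12 hours positive. ND-B18 ran from 11.13 to 11.40 in CF (median 11.34), from 11.32 to 11.59 in RF (median 11.42) and from 11.13 to 11.59 in SF (median 11.36). Its RF arrays were higher than CF at 12 of 12 hours, with a difference of 0.13 (SE 0.032, adjusted p = 0.0411). Both ND-PDSW and ND-B18 are known in mammals as subunits that reach the intermembrane space. ND-ASHI differed by 0.12 (adjusted p = 0.217), and ND-MNLL, ND-B17 and ND-B22 by 0.08, 0.07 and 0.07 (adjusted p = 0.345, 0.373 and 0.447).

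ND-ACP and ND-MLRQ stand outside these groups. ND-ACP encodes the mitochondrial acyl carrier protein, which serves fatty acid synthesis in the matrix and is bound to both arms of complex I in mammals. Its difference was 0.13 (SE 0.044, adjusted p = 0.149), and the other 2 probe sets of ND-ACP gave 0.05 and 0.11 (adjusted p = 0.554 and 0.0841). ND-MLRQ, whose mammalian counterpart is now counted with complex IV, differed by 0.10 (SE 0.033, adjusted p = 0.152). The second probe set of ND-B17 gave 0.09 (adjusted p = 0.237).

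**Figure D2:**
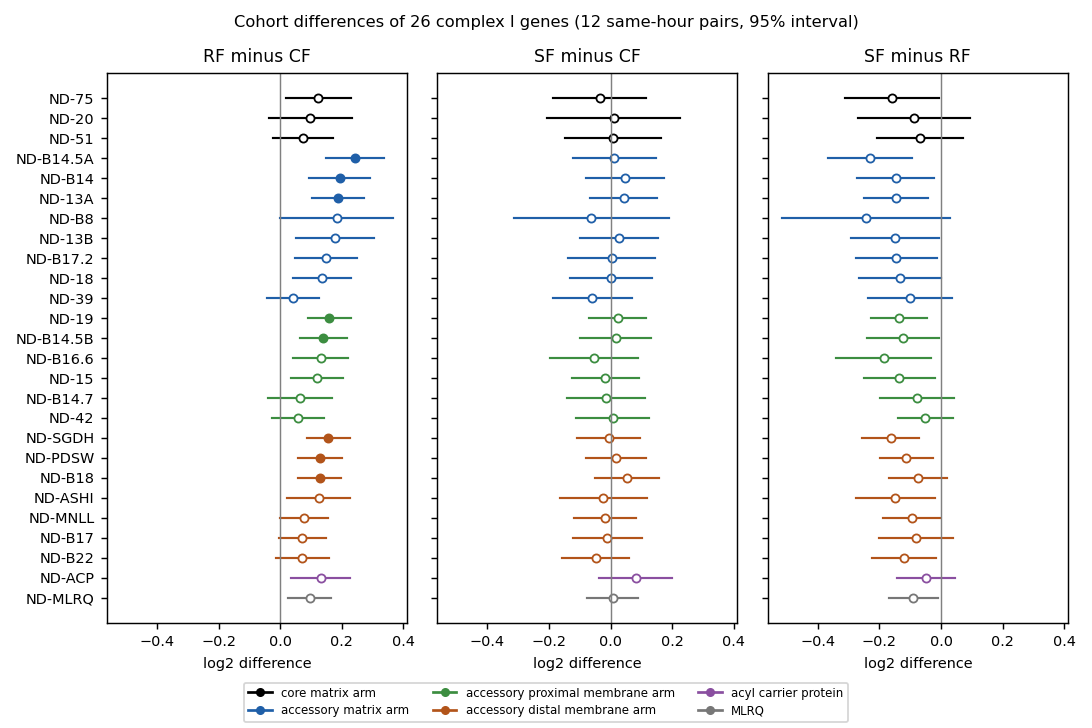
Mean log2 difference over 12 same-hour pairs (point) with its 95% interval (line) for the 26 members in RF minus CF, SF minus CF and SF minus RF, grouped and coloured by role, with filled points for called members. All 26 points of RF minus CF lie above 0 and 8 are filled, and no point is filled in the other comparisons.

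The 8 calls were not equally firm when single hours were left out. ND-B14.5A, ND-13A, ND-19 and ND-SGDH were called with any single hour left out, with adjusted p values up to 0.0183, 0.0414, 0.0372 and 0.0405. ND-B14, ND-B14.5B and ND-B18 each lost the call without 2, 8, 18, 24, 32, 40, 48, 56 or 72 hours (adjusted p up to 0.0759, 0.105 and 0.0964). ND-PDSW lost it without any hour other than 2 or 6 (up to 0.108). The count of 8 was thus 5 without 2 hours (3.98% of all probe sets called higher). It was 4 without 8, 18, 24, 32, 40, 48, 56 or 72 hours (3.26% to 3.83% of all). The count was 3 without the pairing by hour (2.54% of all probe sets called higher), 4 with arrays centred on their medians (4.06%), 4 with no filter on low scores (2.01%) and 17 with array weights (10.2%). Over the 22 settings other than leaving out a single hour from the full series, the same grouping did not hold. ND-B14.5A lost its call in 3 of them and ND-13A in 6. ND-19, ND-SGDH and ND-B14 each lost it in 9, ND-B14.5B in 13, and ND-B18 and ND-PDSW in 14.

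**Figure D3:**
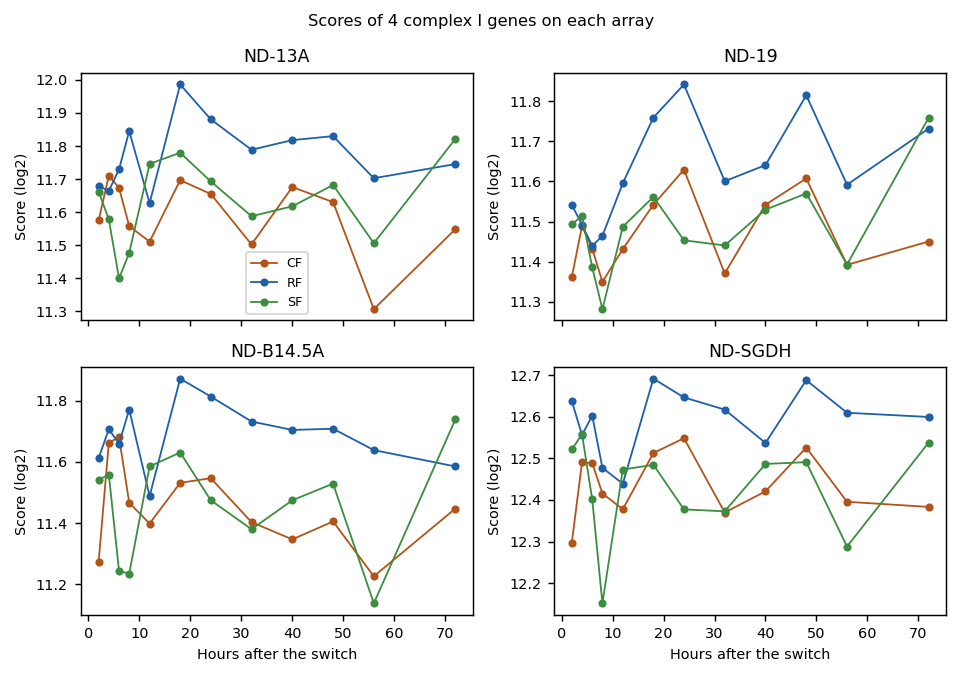
Log2 scores of the 4 members called with any single hour left out, on each array of the CF, RF and SF cohorts against hours after the switch. From 18 to 56 hours RF is the highest cohort for each of the 4 genes, and SF drops at 6 and 8 hours and lies above RF at 72 hours for ND-B14.5A, ND-13A and ND-19.

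By hour, the median RF minus CF difference was below 0 at 4, 6 and 12 hours. At the other hours from 2 to 72 it was positive, with at least 21 of 26 members higher in RF. Both cohorts stayed on their diets, so hours from the switch are no time of exposure in this comparison. At 0 hours, on a single array of each cohort and with no test, 25 of 26 members were higher in RF (median 0.21). At 2 hours 21 of 26 members were higher in RF (median difference 0.10), at 4 hours 6 (-0.07), at 6 hours 7 (-0.05), at 8 hours 22 (0.14) and at 12 hours 11 (-0.02). At 18, 24, 32, 48 and 72 hours 26 of 26 were higher, with medians of 0.22, 0.21, 0.24, 0.18 and 0.19. At 40 hours 22 were higher (0.10) and at 56 hours 25 (0.22). Over all probe sets tested the share higher in RF lay between 39.2% and 61% at the 12 hours from 2 to 72. Among these 12 hours RF itself was lowest at 12 hours for 21 of 26 members and highest at 18 hours for 17. CF was lowest at 56 hours for 16. The RF array at 12 hours also had the highest eggshell (12.4) and germline (10.6) means of its cohort. Its flight muscle (9.64) and photoreceptor (10.1) means were the lowest of that cohort. The part of these tissues in the values at 12 hours was not tested.

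At 24 to 72 hours alone 14 of 26 members (53.8%) were called higher in RF, where 10.1% of all probe sets were, and the median difference was 0.18. At 2 to 18 hours alone 0 of 26 were called, where 0.127% of all were, the median difference was 0.06, and 1 member had an unadjusted p under 0.05. The change itself, 24 to 72 minus 2 to 18 hours, was tested by limma and called for 0 of 26 members, as for 0 of all 9420 probe sets (0%). It was positive for 25 of 26 members with a median of 0.13, and 8 members reached an unadjusted p under 0.05, where 21.7% of all probe sets did. ND-13B had the largest change, 0.25 (SE 0.099, adjusted p = 0.371), and that of ND-MLRQ was 0.00 (SE 0.066). The count of 14 at 24 to 72 hours moved with single hours, and so did the share of all probe sets called higher. Leaving out 56 hours gave 1 (3.69% of all), leaving out 24 or 32 hours gave 4 (5.04% and 4.94%), and leaving out 40, 48 or 72 hours gave 11, 9 and 11 (5.72%, 10.2% and 7.94%). A covariate for the eggshell mean made it 0 (1.17% of all, and 15 members at an unadjusted p under 0.05).

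**Figure D4:**
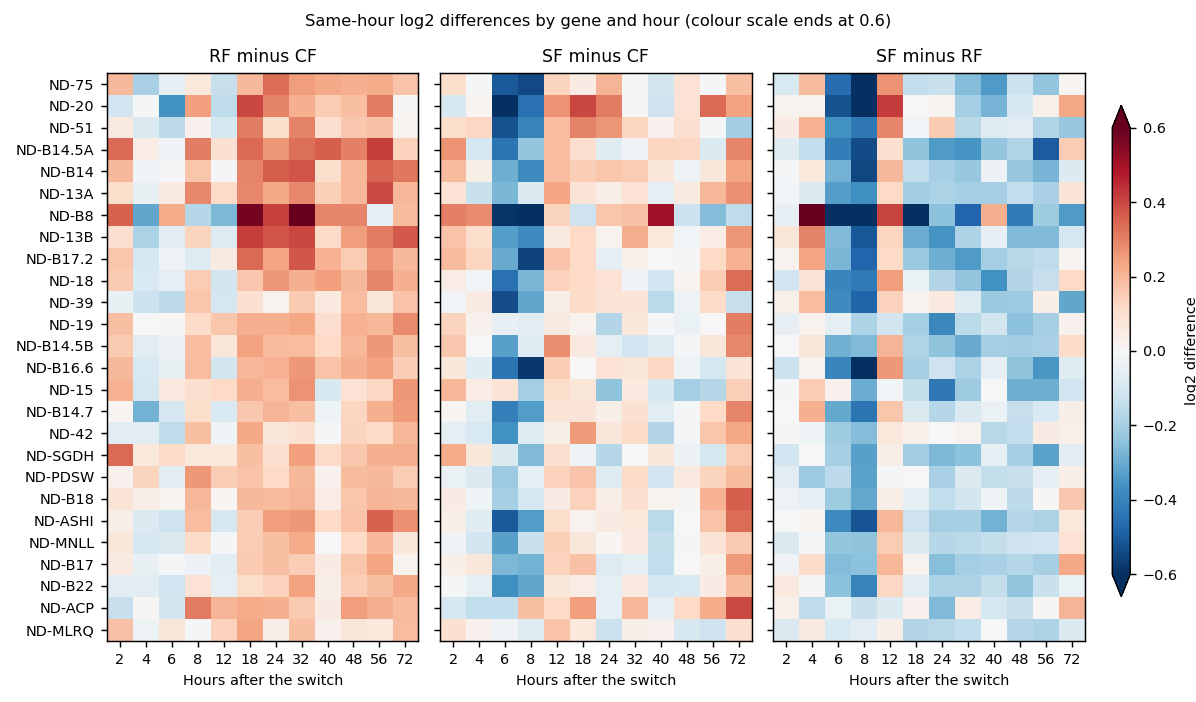
Same-hour log2 differences of the 26 members (rows, grouped by role) at the 12 hours (columns) in RF minus CF, SF minus CF and SF minus RF, with red for positive and blue for negative values and a colour scale that ends at 0.6. RF minus CF is positive in nearly every row from 18 hours on, and the SF columns at 6 and 8 hours are blue in nearly every row.

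In flies moved from the full to the restricted diet, complex I genes did not differ detectably from those of flies that stayed on the full diet. The member mean was 11.60 ± 0.13 (SD, n = 12 hours) in SF, 11.60 ± 0.09 in CF and 11.72 ± 0.09 in RF. SF minus CF had a median of 0.00 over the 26 members, from -0.06 for ND-B8 to 0.08 for ND-ACP, and 15 of 26 were positive. None was called by limma, with 0 of 26 higher against 0.552% of all probe sets and 0 of 26 lower against 1.25%. An unadjusted p under 0.05 was reached by 0 members, and by 859 of all 9420 probe sets. The methods' paired t-test called 0 as well. Of all probe sets it called 0.69% higher and 1.46% lower with Storey's adjustment, and 0.467% and 1.04% with Benjamini-Hochberg adjustment. The 95% interval of ND-B14.5A reached from -0.12 to 0.15, against an RF minus CF difference of 0.24. The interval of ND-B18 reached from -0.05 to 0.16 and included its RF minus CF difference of 0.13. Over all members the SF minus CF interval included the RF minus CF difference for 10 of 26 and lay below it for 16. Of the 8 called members it lay below it for 7, but these 8 were called for that same difference. The tally takes no account of the error of RF minus CF, nor of the CF arrays shared by both. It is therefore no test of whether SF reached RF.

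The course of SF after the switch was not even. At 2 hours 19 of 26 members were higher in SF than in CF (median 0.08) and at 4 hours 13 (0.00). At 6 hours only ND-15 was higher and the median was -0.33, and at 8 hours only ND-ACP was higher and the median was -0.28. ND-B8 reached -1.07 at 8 hours and ND-20 reached -0.89 at 6 hours, the lowest values of any member. At 12 hours 26 of 26 were higher in SF (0.14) and at 18 hours 23 (0.09). Between 24 and 56 hours the median stayed between -0.06 and 0.07, and at 72 hours 23 of 26 were higher (0.23). The drop lay on 2 arrays, whose eggshell means were 12.1 and 12.8 and whose flight muscle means were 9.59 and 9.27, and the part of these tissues in it was not tested. On the SF array at 18 hours the eggshell mean was 12.1 and the flight muscle mean 10.2. The complex I mean of this 1 array, 11.76, was the highest of the cohort. Over the 12 SF arrays the complex I mean had r = -0.647 with the eggshell mean and 0.732 with the flight muscle mean. Without 6 and 8 hours the SF minus CF median was 0.06 and 0 members were called, with 4 at an unadjusted p under 0.05. Of all probe sets, 1.03% were called higher in SF than in CF in that fit and 0.764% lower. The change from 2 to 18 to 24 to 72 hours was called for 0 of 26 members and 0% of all probe sets (0 and 1334 at an unadjusted p under 0.05), with a member median of 0.11.

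Against flies kept on the restricted diet throughout, SF was lower for 26 of 26 members, with a median of -0.13 and a range of -0.25 for ND-B8 to -0.05 for ND-ACP. None of the 26 was called by limma, in either direction, where 0.446% of all probe sets were called higher and 1.51% lower. Still, 17 members reached an unadjusted p under 0.05, as did 1166 of all 9420 probe sets. ND-SGDH came nearest, at -0.16 (SE 0.043, adjusted p = 0.0560), followed by ND-B14.5A at -0.23 (SE 0.064, adjusted p = 0.0691), and each was lower in SF at 10 of 12 hours. By the methods' paired t-test 1 member was called lower after Benjamini-Hochberg adjustment (1.3% of all probe sets) and 3 by Storey's method (1.91% of all). The fit of all 3 cohorts together with hour as a block called 3 lower (2.58% of all), and the fit with array weights called 16 (6.79% of all). At 8 and 48 hours 0 of 26 members were higher in SF than in RF, with medians of -0.41 and -0.17, at 12 hours 22 were (0.13), and at 72 hours 16 were (0.03). The change from early to late hours was called for 0 of 26 members and 0% of all probe sets (0 and 193 at an unadjusted p under 0.05), with a member median of -0.04. The comparisons of SF with CF and with RF share the SF arrays, and each shares the other cohort with RF minus CF, so their values are not independent of each other.

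The members varied together over the arrays. The correlation of a member with the mean of the other members over the 36 arrays ran from 0.46 for ND-ACP to 0.96 for ND-B14, and from 0.39 to 0.95 with each cohort's mean removed. ND-ASHI, ND-18, ND-MNLL and ND-B17.2 also exceeded 0.92, and ND-ACP, ND-15, ND-MLRQ and ND-19 were the 4 lowest. These points share an array, its RNA and its normalization. The genes of complexes II to V varied with them, and the mean of 32 of these genes had r = 0.965 and rho = 0.955 with the complex I mean (0.943, 0.945 and 0.965 within CF, RF and SF, and 0.962 without the 2 arrays farthest from the median; permutation p = 1e-05 for each, the smallest that can be given, adjusted p = 7.00e-05 and 4.67e-05).

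Genes of the other respiratory complexes were positive in RF minus CF too. Of 32 tested genes of complexes II to V, 5 were called higher and 0 lower, 29 were positive, and the median was 0.10. Of all 9420 probe sets, 4.77% were called higher and 2.65% lower, and 4342 were positive. The called genes were SdhC of complex II, which anchors succinate dehydrogenase in the membrane, at 0.21 (adjusted p = 0.0331), and COX5A, COX5B, COX7AL2 and COX8 of cytochrome c oxidase, complex IV. COX5B differed by 0.16 (adjusted p = 0.0116), and COX7AL2 by 0.43 (adjusted p = 0.0472). The medians were 0.19 for 3 genes of complex II, 0.12 for 8 of complex III, 0.12 for 10 of complex IV and 0.07 for 11 of complex V, the ATP synthase, of which 0 were called (8 at an unadjusted p under 0.05). UQCR-11L of complex III was the lowest, at -0.34 (adjusted p = 0.0872). The 32 genes had medians of 0.00 in SF minus CF and -0.10 in SF minus RF, with 0 called. Whether complex I differed from the other complexes was not tested.

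Assembly factors of complex I, which help to build it but are not part of it, were looked at beside it. Of 8 measured, 0 were called by limma in any comparison (1 at an unadjusted p under 0.05 in each), and the median RF minus CF difference was 0.02. CG8067, a fly counterpart of a mammalian assembly factor, had the largest, 0.12 (SE 0.037, adjusted p = 0.100), and CIA30 differed by 0.05, sicily by -0.02 and Nubpl by 0.01. Whether they differed from the members was not tested. Of 5 regulators of nuclear genes for mitochondria, 0 were called by limma and 0 reached an unadjusted p under 0.05 in RF minus CF. Their RF minus CF differences ran from -0.09 for foxo to 0.03 for ewg, the fly counterpart of the nuclear respiratory factor, and TFAM, which packs mitochondrial DNA, differed by -0.01.

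Several muscle genes differed between RF and CF as well. All 12 flight muscle markers had means above 6, and 5 of them were called higher in RF than in CF (TpnC4, up, Tm2, Mlc1 and Prm, which encode troponin, tropomyosin, myosin light chain and paramyosin proteins) and Act88F, the flight muscle actin, was called lower at -0.75 (adjusted p = 0.00875). Beside these and the marker lists below, 4.77% of all probe sets were called higher in RF than in CF and 2.65% lower. TpnC4 differed by 0.94 (adjusted p = 8.00e-04). The list mean ran from 9.36 to 10.5 in CF, from 9.64 to 10.6 in RF and from 9.27 to 10.7 in SF. Its RF minus CF difference averaged 0.26 and was positive at 10 of 12 hours. The average was 0.08 at 2 to 18 hours and 0.43 at 24 to 72 hours. At 24 to 72 hours alone 10 of the 12 markers were called higher, where 10.1% of all probe sets were. The same-hour difference of the flight muscle mean was then used as a covariate. Since this mean itself differed between RF and CF, the fit cannot tell the share of muscle from the diet. It was not a test of either. The RF minus CF differences of the 8 called members then lay between 0.09 and 0.16. For 7 of them the difference was smaller than without the covariate, while that of ND-PDSW was 0.14 in place of 0.13. In that fit 0 of 26 members were called higher (9 at an unadjusted p under 0.05), where 2.81% of all probe sets were, and the median of all 26 was 0.04. With the eggshell mean as the covariate 8 were called higher, where 5.52% of all were, and the median was 0.12. Of 12 eggshell genes 0 were called by limma in any comparison, with 0 at an unadjusted p under 0.05, and their mean ran from 9.84 to 12.7 in CF, from 9.83 to 12.4 in RF and from 10.5 to 12.8 in SF. Markers of other tissues differed between RF and CF as well. Of 7 fat body genes 4 were called lower in RF, with Lsp2, a larval storage protein, at -3.17, and the list mean was lower at 12 of 12 hours, by 0.63 on average. Of 7 midgut genes 3 were called higher and 2 lower, and of 6 tested germline genes aub was called lower at -0.30 (adjusted p = 0.0341). The part of these tissues in the complex I differences was not tested.

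Across the 36 arrays the member mean was higher where the flight muscle mean was higher (r = 0.690, rho = 0.698, permutation p = 3e-05 and 4e-05, adjusted p = 1.05e-04 and 1.40e-04 over 14 relations). Within CF, RF and SF r was 0.576, 0.543 and 0.732, and it was 0.626 without the 2 arrays farthest from the median. The member mean was lower where the eggshell mean was higher (r = -0.601, rho = -0.591, permutation p = 1e-04 and 2.6e-04, adjusted p = 2.8e-04 and 7.28e-04), with r of -0.609, -0.641 and -0.647 within the cohorts and -0.632 without the 2 farthest arrays. For germline markers r was -0.668 and rho -0.706 (permutation p = 2e-05 and 1e-05, adjusted p = 9.33e-05 and 4.67e-05; -0.708, -0.545 and -0.815 within the cohorts, and -0.714 without the 2 farthest), and for the median of each array over all tested probe sets r was -0.476 and rho -0.379 (permutation p = 0.00327 and 0.0237, adjusted p = 0.00572 and 0.0415; -0.609, -0.367 and -0.557 within the cohorts, and -0.373 without the 2 farthest). For photoreceptor markers r was 0.744 and rho 0.738, each with a permutation p of 1e-05, the smallest that 100000 permutations can give (adjusted p = 7.00e-05 and 4.67e-05), with 0.734, 0.742 and 0.878 within the cohorts and 0.678 without the 2 farthest. The relations to fat body and midgut markers did not pass over the 36 arrays (r = -0.013 and 0.205, permutation p = 0.940 and 0.231). Within CF, RF and SF, r was 0.39, 0.337 and 0.45 for fat body and -0.414, 0.031 and 0.264 for midgut. Over the 12 same-hour RF minus CF differences, r with flight muscle was 0.754 (rho = 0.615, permutation p = 0.00502 and 0.0357, adjusted p = 0.00781 and 0.0556), and it was 0.469 without the 2 hours farthest from the median, so it rests in part on those hours. For SF minus CF it was 0.697 (rho = 0.133, permutation p = 0.0152 and 0.682) and turned to -0.542 without the 2 farthest hours. For SF minus RF r was 0.816 with flight muscle and -0.830 with the eggshell mean (rho = 0.692 and -0.713, permutation p = 0.00139 and 0.0011 for r, and 0.607 and -0.593 without the 2 farthest hours). With the eggshell mean, RF minus CF gave r = -0.625 (rho = -0.476, permutation p = 0.0282 and 0.122), and -0.245 without the 2 farthest hours. SF minus CF gave r = -0.441 with it (rho = -0.378, permutation p = 0.138 and 0.226), and -0.622 without the 2 farthest hours.

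**Figure D5:**
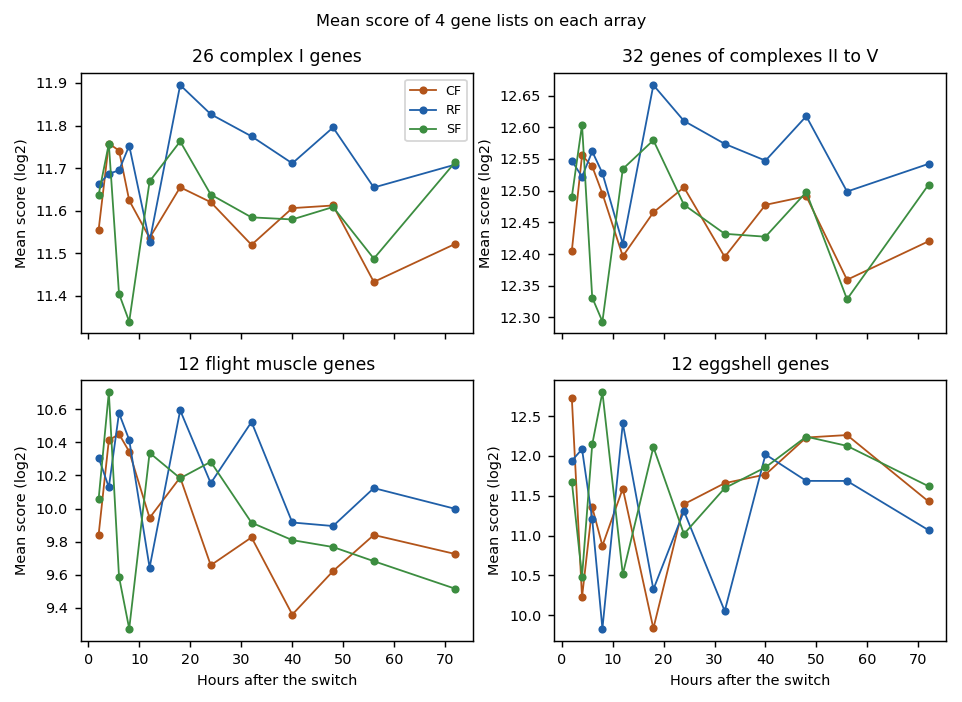
Mean log2 score of the 26 complex I genes, of 32 genes of complexes II to V, of 12 flight muscle genes and of 12 eggshell genes on each array of CF, RF and SF against hours after the switch, with a separate vertical scale in each panel. SF at 6 and 8 hours is lowest for complex I (11.40 and 11.34), and RF lies above CF for complex I from 18 hours on. At 6, 8 and 18 hours the eggshell mean of SF is 12.1, 12.8 and 12.1 and its flight muscle mean 9.59, 9.27 and 10.2.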

How the data were processed

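RNA of 36 arrays (12 hours in each of 3 cohorts) was used, and 2 arrays at 0 hours entered no test. The authors deposited log2 expression scores made by quantile normalization and RMA, so levels are relative to the other arrays. The number of arrays limits the precision. Per the study's methods a filter on principal variance components was applied, and the table used here held all 18952 probe sets, of which 183 were array controls. Genes were named by the platform annotation (13647 probe sets with 1 symbol, 402 with several, 4720 with none).

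The 9420 non-control probe sets averaging 6 or more were fitted with limma 3.58.1 (R 4.3.3) on the 12 differences between arrays of the same hour, with 1 adjustment over the 28260 p values of all 3 comparisons (Benjamini-Hochberg, threshold 0.05). Arrays were paired by hour as in the study's methods, which used a paired t-test. No label says that arrays of an hour share a batch. The p values measure the spread between hours of pooled flies, since no hour was sampled again. The fit was tested on data with known changes. Correlations over arrays have two-sided permutation p values.

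The members and lists were chosen with earlier results of these data known. All members were eligible to be named, with full values for those called and for the 3 largest and 3 smallest RF minus CF differences, and other genes came only from written lists. Alternatives were another pairing, test, filter, centring, adjustment, weighting, covariate and choice of hours.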

Additional observations from a re-analysis of the deposited data

How the results depend on the processing

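Shares of all probe sets called are given in parentheses. The count of 8 members higher in RF than in CF was 3 without the pairing by hour (2.54%). It was 4 after centring arrays on their medians (4.06%), 4 with no filter on low probe sets (2.01%) and 17 with array weights (10.2%). It was 0 with the flight muscle covariate (2.81%), 0 at 2 to 18 hours alone (0.127%) and 14 when fitted on 24 to 72 hours (10.1%). With each hour left out it was 4 to 8 (3.26% to 5.85%). Chosen after seeing the data, it was 5 without 6 and 8 hours (3.26%). Fits at 24 to 72 hours alone, also chosen after seeing the data, gave 0 with the eggshell covariate (1.17%). They gave 4 without 24 or 32 hours (5.04% and 4.94%) and 1 without 56 hours (3.69%). The count of 0 members lower in SF than in RF was 2 without the pairing (1.5%) and 3 with hour as a block in 1 fit (2.58%). By the methods' paired t-test it was 3 with Storey's adjustment (1.91%) and 1 with Benjamini-Hochberg adjustment (1.3%). It was 1 with a filter at a mean of 8 (1.7%), 16 with array weights (6.79%) and 1 with the eggshell covariate (2.47%). With each hour left out it was 0 to 2 (0.966% to 2.31%). At 24 to 72 hours alone it was 1 without 40 hours (3.77%) and 2 without 72 hours (2.79%). The other 4 counts over all hours and the 3 counts of changes over time were 0 under every alternative run, from 0 to 0 with each hour left out. The covariate fits change what is compared, and no cause was tested. Differences of the 8 called members kept their sign under all settings. Each lost its call in 3 to 14 of the 22 settings other than leaving out 1 hour. Exact sign-flip tests gave unadjusted p = 4.88e-04 to 0.00391. The 8 members had been called for the same differences, so the sign-flip tests add no separate support.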

Other observations

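At the time of the switch, 0 hours, 1 CF array and 1 RF array were measured and SF had none, so there is no test. RF scored higher for 25 of 26 complex I members, all but ND-15 at -0.05, with a median difference of 0.21 and a largest one of 0.39 for ND-20, while 45% of all probe sets scored higher in RF. The member means were 11.9 in CF and 12.10 in RF, higher than on any array of the same cohort at 2 to 72 hours, and the eggshell means of these arrays were 8.28 and 5.61, lower than on any of them.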
